A study of Mus musculus with 22 samples.

Results

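Intergenic H3K27me3 peaks near an annotated start site were examined in the mouse retina at embryonic day 18.5, with and without Jarid2. These are the autosomal peaks that the deposited annotation places between genes (distal intergenic) and less than 10000 bp from the transcription start site of the gene assigned to them. They number 2050 of 19034 peaks, and 91 X-linked peaks of the same kind were left out. The choice rests on position alone and used no comparison of the genotypes. H3K27me3 was mapped by CUT&RUN, in which a nuclease tethered to an antibody cuts out the DNA beside the marked nucleosomes, and the deposited values are counts of reads per peak. Conditional knockout (cKO) animals were Jarid2 fl/fl with Rx-cre, a tamoxifen-inducible Cre driven in the cells of the early eye field. Control replicate 1 was Jarid2 fl/+ with Rx-cre, control replicates 2, 4 and 5 were Jarid2 fl/+ without Cre, and control replicate 3 was Jarid2 fl/fl without Cre. All were on the C57BL/6 background, and all pregnant females received tamoxifen at 75 µg per g at E10.5, so that the controls saw the drug too. The retinas of each animal were combined as whole tissue, so fewer cells with the mark and less of the mark per cell cannot be told apart. The protocol text gives all controls as Jarid2 fl/fl, and the sample labels were used here.

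H3K27me3 is written by Polycomb repressive complex 2 (PRC2) and is a hallmark of silenced developmental genes. JARID2 is an accessory subunit that binds nucleosomes and helps to bring PRC2 to its sites, foremost CpG-rich promoters. The mark also spreads away from such sites and forms broad domains between genes, where it can cover distal regulatory elements, pseudogenes and noncoding RNA genes. In the developing retina PRC2 is known for restraining genes of other lineages and of early progenitors.

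The 2 cKO and 2 control animals of batch 1 included 1 female each, and the 3 cKO and 3 control animals of batch 2 were all male. Each animal of batch 2 had 2 technical duplicates, which differed by less than counting noise and were summed, so that n = 5 animals per group. An animal had 1688368 to 2864080 reads in peaks. Levels are given in CPM, each count scaled to a common total of reads in all peaks with TMM factors, and are relative to the other peaks of the same animal. H3K27me3 counts do not measure the deletion, so the genotype labels could not be checked on Jarid2. Of 14 retinal marker genes 9 had a promoter peak, and Crx, Rax, Six3, Six6 and Sox2 had none, against 2 of 4 for lens, 1 of 4 each for pigment epithelium and vessels, and 0 of 4 for microglia. The mark is not expression, so these counts do not show which cells were present.

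The near intergenic peaks hold few start sites of their own. A RefSeq start (GRCm38.p6, the assembly that mm10 represents) fell inside 46 of the 2050. Of the 44 tested, 5 were lower in cKO (11.4%) and 0 higher (edgeR quasi-likelihood test, below), beside 7.38% lower of all tested peaks. Shown are 3 of these starts, because they lie inside lower peaks, and with them the starts of 3 genes whose intergenic peak was higher. Each sequence runs from 250 bases before to 50 bases after the start, and CG pairs, the site of DNA methylation and a feature of Polycomb-bound promoters, are in capitals.
Gm36139 (chr1:151155197-151155496, minus strand): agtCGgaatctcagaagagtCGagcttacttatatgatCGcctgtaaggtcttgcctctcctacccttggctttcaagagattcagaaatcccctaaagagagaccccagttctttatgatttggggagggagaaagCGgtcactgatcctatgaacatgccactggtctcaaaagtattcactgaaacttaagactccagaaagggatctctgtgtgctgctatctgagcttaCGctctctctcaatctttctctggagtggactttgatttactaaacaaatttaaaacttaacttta
Gm31284 (chr7:84430031-84430330, plus strand): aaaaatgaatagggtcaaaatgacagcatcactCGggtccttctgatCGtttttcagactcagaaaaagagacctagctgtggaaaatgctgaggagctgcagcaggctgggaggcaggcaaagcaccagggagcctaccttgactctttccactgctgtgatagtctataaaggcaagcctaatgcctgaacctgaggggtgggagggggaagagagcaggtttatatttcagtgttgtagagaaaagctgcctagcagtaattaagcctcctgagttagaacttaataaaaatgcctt
Gm34992 (chr1:90337481-90337780, plus strand): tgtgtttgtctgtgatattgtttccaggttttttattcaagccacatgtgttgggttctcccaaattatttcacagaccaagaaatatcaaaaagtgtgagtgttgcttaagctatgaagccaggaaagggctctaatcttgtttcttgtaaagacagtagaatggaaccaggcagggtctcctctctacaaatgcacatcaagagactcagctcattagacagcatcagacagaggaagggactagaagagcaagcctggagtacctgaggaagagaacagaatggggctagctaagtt
Kbtbd2 (chr6:56797164-56797463, minus strand): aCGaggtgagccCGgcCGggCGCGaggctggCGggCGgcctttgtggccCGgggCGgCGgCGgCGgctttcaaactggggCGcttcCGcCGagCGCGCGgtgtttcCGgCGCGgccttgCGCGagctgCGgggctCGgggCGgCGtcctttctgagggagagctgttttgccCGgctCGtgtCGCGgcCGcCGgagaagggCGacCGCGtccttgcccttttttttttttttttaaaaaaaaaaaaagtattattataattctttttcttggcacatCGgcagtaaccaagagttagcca
Tspan33 (chr6:29693964-29694263, plus strand): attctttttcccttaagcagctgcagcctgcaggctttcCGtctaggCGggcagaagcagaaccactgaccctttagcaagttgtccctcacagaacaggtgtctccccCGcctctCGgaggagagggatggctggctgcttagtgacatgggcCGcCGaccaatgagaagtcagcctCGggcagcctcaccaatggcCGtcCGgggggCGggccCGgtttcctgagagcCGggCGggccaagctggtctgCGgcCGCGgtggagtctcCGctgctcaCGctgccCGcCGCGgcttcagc
Dynlrb2 (chr8:116504765-116505064, plus strand): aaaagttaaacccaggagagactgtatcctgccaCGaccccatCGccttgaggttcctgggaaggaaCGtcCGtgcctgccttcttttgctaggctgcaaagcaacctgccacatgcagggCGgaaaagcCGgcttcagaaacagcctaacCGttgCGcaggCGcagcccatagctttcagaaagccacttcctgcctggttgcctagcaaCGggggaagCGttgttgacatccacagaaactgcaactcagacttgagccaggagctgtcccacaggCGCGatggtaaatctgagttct

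The Gm36139, Gm31284 and Gm34992 starts, which lie inside the lower peaks assigned to Gm47985, Gm44933 and Gm27648, held 5, 2 and 0 CG pairs. The Kbtbd2, Tspan33 and Dynlrb2 starts held 37, 21 and 13 CG pairs and lay 8.21, 9.96 and 5.07 kb from the edge of their intergenic peak. These are starts of protein-coding genes outside the peaks, so the groups shown are not alike and were not compared. The 3 starts inside lower peaks are low ones, since all 12 starts inside lower peaks had a median of 6 CG pairs (quartiles 4 and 6.25). The median over 71 starts inside near intergenic peaks, of which 68 are starts of lncRNA genes, was 5. It was 13 for 21263 starts of protein-coding genes and 4 for 11588 starts of lncRNA genes in the RefSeq table. CG reads the same on both strands, and 94.6% of all 32851 starts in the table held at least 1. The table holds no starts on chromosome 18, and near intergenic peaks there were not searched.

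The near intergenic peaks were narrow and low beside promoter peaks. Their width ran from 601 to 46151 bp with a median of 2041 bp, against 3961 bp for the 9098 autosomal promoter peaks. They lay 3001 to 9997 bp from the assigned start, with a median of 5900 bp, since the annotation counts peaks up to 3 kb from a start as promoter. There were 1471 upstream and 579 downstream of it. After the removal of low counts 1656 were tested and 394 were not. Tested peaks averaged 3.36 to 905 CPM (median 11.3), and their density, 4.62 CPM per kb at the median, compares with 6.88 for promoter peaks and 5.01 for intergenic peaks farther from a start. In all they took 3.66, 3.63, 3.77, 3.89 and 4.01% of the reads of cKO replicates 1 to 5, against 3.41, 3.39, 3.62, 3.77 and 4.11% in control replicates 1 to 5. The groups overlap in batch 2 and do not in batch 1.

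The 2050 peaks were assigned to 1915 genes, of which 1076 are protein-coding, and the other peaks belong to processed pseudogenes (355 peaks), lincRNA genes (238) and smaller classes. Peaks assigned to protein-coding genes lay a median of 5091 bp from a protein-coding gene in RefSeq, and the others 19300 bp, some of them at pseudogenes or noncoding models in gene deserts. Set against RefSeq gene bodies, 320 of the 2050 peaks (15.6%) overlapped a gene that the deposited annotation did not count, and 74 of them overlapped a protein-coding gene, so for these the word intergenic holds for the deposited annotation alone. Another 136 lay over 100 kb from any protein-coding gene.

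The comparison of the genotypes asked where the mark differs between cKO and control retinas. All cKO animals carried Cre, and among the controls only replicate 1 did, so effects of Cre and of the loss of Jarid2 cannot be told apart here. Of the 1656 tested near intergenic peaks 71 had less H3K27me3 in cKO retinas and 29 had more (edgeR quasi-likelihood test with batch as a term, adjusted p under 0.05). That is 4.29% lower, against 7.38% of all 16307 tested peaks, and 1.75% higher, against 1.46% of all. Promoter peaks had nearly the same shares, 4.26% lower and 1.89% higher. Intergenic peaks farther from a start had 12.4% lower and 0.649% higher, and all other autosomal peaks 13.3% and 1.11%. The lower near intergenic peaks were assigned mostly to pseudogenes and noncoding models, such as 3110004A20Rik, Gm49516 and Gm11889. Of the tested near intergenic peaks not assigned to protein-coding genes 8.59% were lower, near the 7.38% of all tested peaks. Of those assigned to protein-coding genes 0.768% were lower. Among the higher near intergenic peaks 20 of 29 were assigned to protein-coding genes, such as Kbtbd2 and Tspan33. Lower peaks fell 1.17- to 2.68-fold (median 1.48) and higher peaks rose 1.22- to 2.11-fold (median 1.45). Only 4 of the lower peaks and 1 of the higher changed by 2-fold or more. The median log2 fold change of the tested near intergenic peaks was 0.11, with 1136 of 1656 above 0, beside 0.022 over all tested peaks, 0.032 for promoter peaks and -0.033 for the intergenic peaks farther from a start. Scaled by the total count instead, 57 were lower and 50 higher, and the median was 0.15. With TMM factors the median log2 CPM of the tested near intergenic peaks was 3.60 and 3.64 in cKO replicates 1 and 2, against 3.51 and 3.46 in controls. In batch 2 the groups overlap, with 3.605, 3.67 and 3.72 in cKO and 3.601, 3.57 and 3.72 in controls. Among tested peaks of the lowest level, up to 7.33 CPM, the median log2 fold change was 0.16 for near intergenic, 0.094 for promoter and 0.065 for all peaks. The number of higher near intergenic peaks moved with single animals. It dropped to 10 when cKO replicate 2 was left out, to 13 for cKO replicate 3, 12 for cKO replicate 4 and 14 for cKO replicate 5, and to 12, 10 and 13 for control replicates 2, 3 and 4 in turn, whereas the number lower ran from 50 to 77.

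**Figure D1:**
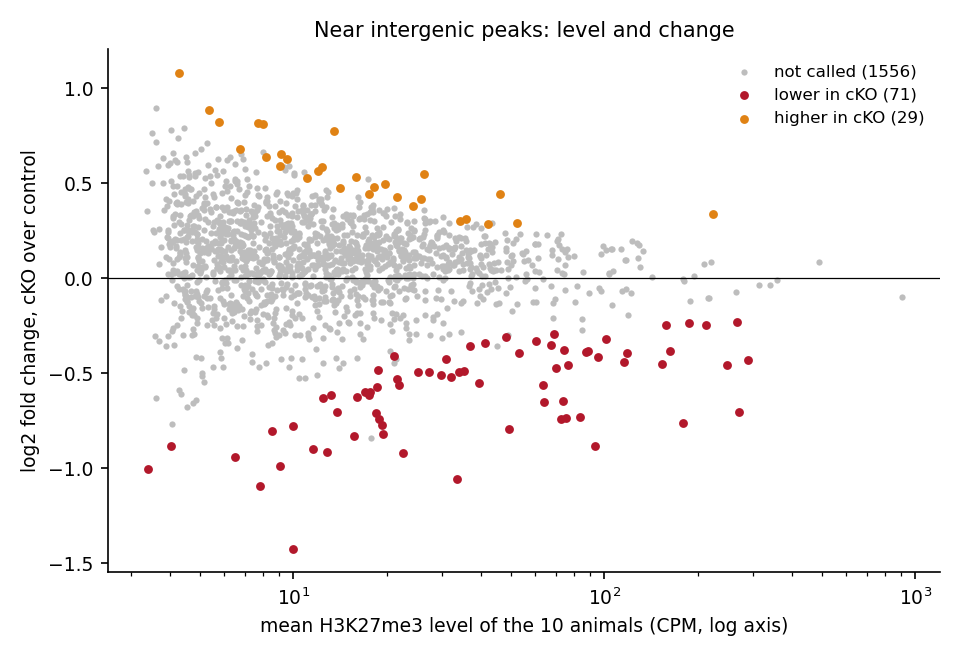
Each point is a tested near intergenic peak, placed by its mean level over the 10 animals (CPM, log axis) and its log2 fold change, cKO over control, with 71 lower peaks in red, 29 higher peaks in orange and 1556 uncalled peaks in grey. Lower calls reach up to 290.2 CPM, while all higher calls but the Gm8843 peak lie under 60 CPM.

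Ranked by adjusted p with 1 peak per gene, the first 10 lower peaks were all assigned to noncoding or predicted models. The widest was the peak of the lincRNA gene 3110004A20Rik (chr11:40448050-40471000, mm10, 208 kb from Mat2b). It held 116, 131, 272, 262 and 257 CPM in cKO replicates 1 to 5, against 218, 257, 408, 417 and 361 CPM in control replicates 1 to 5. Both batches separate the genotypes, and batch 2 lies higher than batch 1 in each of them, so the groups overlap only across batches. The log2 fold change was -0.71 ± 0.08 (SE, n = 5 each, edgeR adjusted p = 7.35e-06).

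The peak assigned to the pseudogene Gm49516 (chr16:23838470-23843210) lay 46.4 kb from Sst, the gene of the neuropeptide somatostatin. It held 10.6, 9.45, 34.7, 28.7 and 25.2 CPM in cKO and 18.3, 33.0, 55.4, 59.2 and 62.4 CPM in controls, a log2 fold change of -1.06 ± 0.13 (edgeR adjusted p = 2.31e-05). Again each cKO animal lay below each control of its batch. A second Gm49516 peak 42423 bp from Sst was lower as well (-0.99, adjusted p = 0.0158), as was the peak of the somatostatin receptor gene Sstr1, both named after their values were seen. The near intergenic peaks assigned to Sst itself (log2 fold change -0.42) and to the receptor gene Sstr5 (0.43) did not pass.

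The largest fold was at the peak assigned to the pseudogene Gm6171 (chr12:118785810-118788150), 58.1 kb from Sp8, which encodes a zinc finger transcription factor. It held 4.22, 3.98, 4.39, 7.95 and 6.53 CPM in cKO and 6.92, 11.8, 16.9, 17.9 and 19.3 CPM in controls (log2 fold change -1.42 ± 0.19, 2.68-fold, edgeR adjusted p = 3.84e-05). The lowest control is replicate 1, and in batch 2 the groups are far apart. A second peak of Gm6171, 62.2 kb from Sp8 and named after its value was seen, was 2.14-fold lower (adjusted p = 0.00181).

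Of these 10 peaks, 5 lay over 100 kb from any protein-coding gene, 3 of which follow. The Gm11889 peak (chr4:23509040-23515430, 981 kb from the DNA repair gene Mms22l) held 28.0, 24.9, 45.9, 43.3 and 38.2 CPM in cKO and 38.1, 54.3, 80.2, 72.0 and 69.6 CPM in controls (-0.79 ± 0.10, adjusted p = 2.31e-05). The Gm43041 peak (chr5:59939150-59949020), 1806 kb from the protocadherin gene Pcdh7, held 57.5, 58.7, 71.0, 76.9 and 63.0 CPM in cKO and 65.3, 143, 130.1, 145 and 126 CPM in controls (-0.88 ± 0.13, adjusted p = 1.13e-04). Here 4 controls lie far above all cKO animals and control replicate 1 does not. The Gm50412 peak lay 481 kb from the zinc finger gene Sall3 and averaged 57.3 ± 13.0 CPM in cKO against 89.9 ± 19.2 CPM in controls (SD, n = 5 each).

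The remaining 4 were wide peaks assigned to Gm11882 (85.5 kb from Fbxl4), B230112J18Rik (29.8 kb from Ccdc60), Gm37199 (133 kb from the cystine transporter gene Slc7a11) and Gm8664 (31.4 kb from the epithelial transcription factor gene Grhl2). The Gm11882 peak held 102, 116, 146, 148 and 147 CPM in cKO, against 131, 221, 267, 259 and 252 CPM in controls. The other 3 had log2 fold changes from -0.45 to -0.73. Every one of the 10 was lower in 5 of 5 cKO animals than the control mean of its batch, and all 10 passed the threshold in each of the 10 fits that left out 1 animal.

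**Figure D2:**
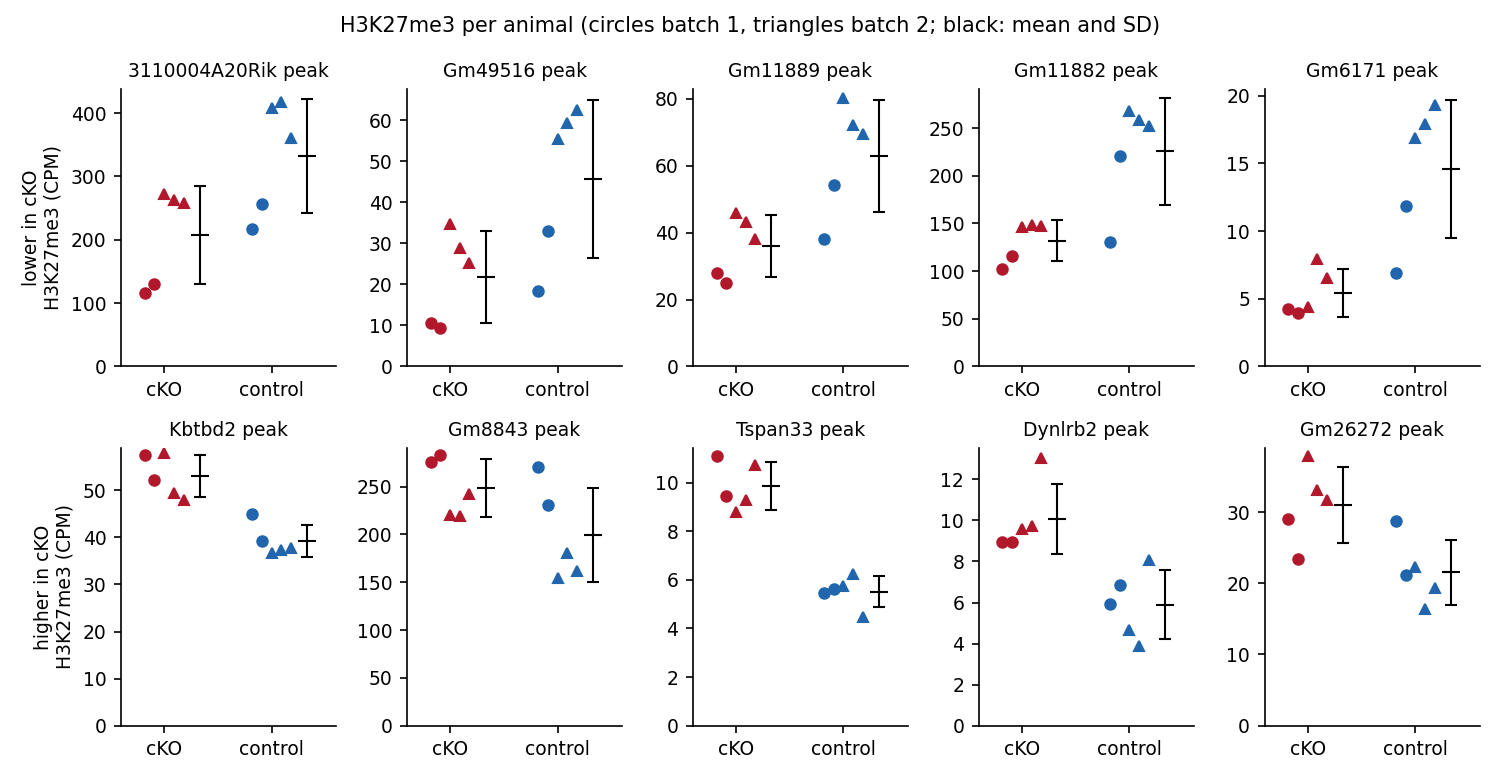
H3K27me3 level (CPM) in each animal at the 5 lower (top row) and 5 higher (bottom row) near intergenic peaks with the smallest adjusted p, cKO in red and control in blue, circles for batch 1 and triangles for batch 2, with the mean and SD of the 5 animals in black. In the top row the genotypes separate within each batch, and in the bottom row they do so at 4 of the 5 peaks, with overlap in batch 1 at the Gm26272 peak.

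Of the 29 higher peaks 20 were assigned to protein-coding genes, against 7 of the 71 lower ones. The Kbtbd2 peak (chr6:56805420-56808780), upstream of a gene for a substrate adaptor of a ubiquitin ligase, held 57.5, 52.2, 57.8, 49.5 and 48.0 CPM in cKO and 45.0, 39.3, 36.7, 37.4 and 37.7 CPM in controls. All cKO animals lay above all controls, also across batches, and the log2 fold change was 0.44 ± 0.09 (SE, n = 5 each, edgeR adjusted p = 0.00193). The Kbtbd2 start printed above is 8.21 kb away.

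The Tspan33 peak (chr6:29682110-29684250), upstream of a tetraspanin gene, held 11.1, 9.45, 8.78, 9.28 and 10.7 CPM in cKO and 5.44, 5.61, 5.75, 6.23 and 4.49 CPM in controls. The groups do not overlap here either (0.82 ± 0.18, adjusted p = 0.00629). The Dynlrb2 peak (chr8:116497370-116499950), near a dynein light chain gene, held 8.97, 8.95, 9.57, 9.72 and 13.1 CPM in cKO and 5.93, 6.86, 4.67, 3.89 and 8.08 CPM in controls (0.81 ± 0.21, adjusted p = 0.0145). All cKO animals lay above all controls, and cKO replicate 5 stood above the other cKO animals.

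The largest rise was at the Dusp23 peak, near a gene for a small phosphatase, a low peak of 5.92 ± 1.39 CPM in cKO and 2.66 ± 1.25 CPM in controls (SD, n = 5 each, log2 fold change 1.08 ± 0.29, adjusted p = 0.0205). The highest of the 29 was the Gm8843 peak (chr15:95688680-95707850), 33.9 kb from the homeobox gene Dbx2, with 276, 283, 220.2, 219 and 242 CPM in cKO and 270.0, 231, 154, 180.3 and 162 CPM in controls. Control replicate 1 was close to the cKO animals of its batch there. The other 5 were peaks of the pseudogene Aprt-ps, the snoRNA gene Gm26272, the zinc finger gene Zfp869, the cilium transport gene Ttc30a2 and Mrps36, with log2 fold changes from 0.43 to 0.77. Of the 10 higher peaks named, Kbtbd2, Gm8843 and Tspan33 passed in each fit that left out 1 animal, and the other 7 did not. Tspan33 did not pass with DESeq2, which called 2 of the near intergenic peaks higher, or in batch 2 alone.

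Both batches gave the same sign at all 71 lower and all 29 higher peaks, which the calls over both batches favour. Every cKO animal lay below every control of its batch, in both batches, at 67 of the 1656 tested near intergenic peaks, and 56 of these were among the 71 called. Over all tested peaks this held at 1254 of 16307 (7.69%). Every cKO animal lay above every control of its batch, in both batches, at 75 of the 1656, and 20 of these were among the 29 called. Over all tested peaks that held at 630 of 16307 (3.86%). The difference between the batches in genotype effect passed the threshold at 0 near intergenic peaks (edgeR test of the interaction), as it did at 0% of all 16989 peaks in that fit, and 52 of 1740 near intergenic peaks there had an unadjusted p under 0.05. No other tool was run for this test.

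The smallest of these p was at the lower peak assigned to the pseudogene Gm47893 (chr13:116083380-116090370), 208 kb from Isl1, a homeobox gene of retinal ganglion cells. It held 22.7, 20.9, 85.8, 78.6 and 67.1 CPM in cKO and 52.9, 63.0, 109, 119.5 and 105 CPM in controls. The log2 fold change was -1.37 in batch 1 and -0.52 in batch 2, with an adjusted p of 0.43 for the difference (edgeR). The peak of Pkdcc, a secreted kinase gene, averaged 43.7 ± 9.06 CPM in cKO and 54.5 ± 3.57 CPM in controls, and that of Gm23409 17.6 ± 3.72 and 16.5 ± 3.09 CPM (SD, n = 5 each). Neither passed the main test or the test between batches.

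**Figure D3:**
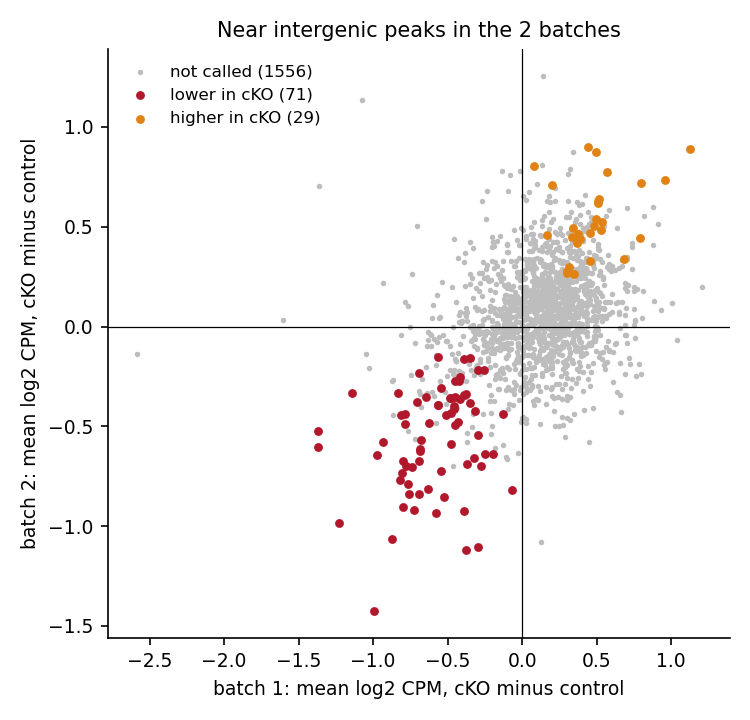
Each point is a tested near intergenic peak, placed by the difference in mean log2 CPM between cKO and control animals in batch 1 (x axis) and in batch 2 (y axis), with the 71 lower peaks in red and the 29 higher peaks in orange. Every red point lies left of and under 0, and every orange point right of and above 0.

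The tested peaks were also counted by class of the assigned gene, beside 4.29% lower and 1.75% higher of all tested near intergenic peaks and 7.38% and 1.46% of all tested peaks. The classes of developmental regulators hold few tested peaks, and their counts were not tested against these shares. Of 4 tested peaks of bHLH genes 1 fell and 1 rose. The Bhlhe22 peak, 5246 bp downstream of the start of a bHLH repressor gene of amacrine and bipolar cells, held 10.03, 12.9, 18.3, 11.9 and 14.0 CPM in cKO and 12.9, 17.5, 25.5, 23.8 and 22.9 CPM in controls. Its log2 fold change was -0.60 ± 0.14 (SE, n = 5 each, edgeR adjusted p = 0.00884) and passed in every fit that left out 1 animal, though not with DESeq2. The peak of Tcf24, another bHLH gene, averaged 14.2 ± 1.79 CPM in cKO and 9.79 ± 1.58 CPM in controls (0.56 ± 0.16, adjusted p = 0.0244) and failed to pass in 6 of the 10 fits that left out 1 animal, namely cKO replicates 2 to 5 and control replicates 3 and 4.

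Of 4 tested peaks of homeobox genes and 5 of forkhead and Sox genes, 0 passed. Among them the peak of Sox4, a gene of neuronal differentiation, averaged 3.64 ± 1.28 CPM in cKO and 5.88 ± 0.987 CPM in controls (adjusted p = 0.135), and those of Foxd4, Meis3 and the pluripotency gene Pou5f1 had adjusted p from 0.629 to 0.814. Of 37 tested peaks of other transcription factors, Zfp869 rose, and Zfp407 had 65.0 ± 3.64 CPM in cKO and 55.3 ± 6.03 CPM in controls (adjusted p = 0.0866). Of 21 tested peaks of signalling genes, that of the adhesion receptor gene Adgra1 rose (23.1 ± 5.48 CPM in cKO and 16.4 ± 3.14 CPM in controls, 0.49 ± 0.14, adjusted p = 0.0324), though not when cKO replicate 2 or 5, or control replicate 2 or 3, was left out. The adrenergic receptor gene Adra2c had 11.1 ± 1.94 and 7.51 ± 2.15 CPM (cKO and control, adjusted p = 0.0701).

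Channels and transporters (38 tested) and adhesion, guidance and matrix genes (15 tested) gave 0 calls, where peaks assigned to any protein-coding gene had 0.768% lower and 2.19% higher. The smallest p there were at the mitochondrial carrier gene Slc25a39, the nucleoside transporter gene Slc29a2, the claudin gene Cldn3 and the ephrin receptor gene Epha2, with log2 fold changes from 0.31 to 0.57 and adjusted p from 0.186 to 0.466. The 746 peaks of other protein-coding genes had 5 lower and 17 higher, with a median log2 fold change of 0.15, and the 786 of noncoding or predicted models had 65 lower and 9 higher, with a median of 0.044.

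Split by the biotype in the deposited annotation, 7 of 911 tested peaks assigned to protein-coding genes were lower and 20 higher (median log2 fold change 0.14). Of 745 peaks assigned to other biotypes 64 were lower (8.59%) and 9 higher (median 0.044). That lower share is near the 7.38% of all tested peaks, while the share of the protein-coding genes, 0.768%, lies under it. Processed pseudogenes had 31 lower and 3 higher of 283, lincRNA genes 21 and 0 of 207, and TEC models (transcripts to be experimentally checked) 5 and 0 of 42. The lower shares of these 3 biotypes were 10.95, 10.1 and 11.9%. The 7 lower peaks of protein-coding genes, named after their values were seen, were those of Bhlhe22, Sstr1, the basement membrane gene Nid2, the kinase gene Camk1g, the apolipoprotein gene Apob, the aquaporin gene Aqp6 and Gm47985. The Nid2 peak averaged 32.3 ± 6.38 CPM in cKO and 41.6 ± 6.28 CPM in controls, and the Camk1g peak 245 ± 27.7 and 288 ± 15.4 CPM (SD, n = 5 each).

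The tested near intergenic peaks were sorted by distance from the nearest protein-coding gene in RefSeq, and the share of lower peaks was larger in each step farther out. No test was made of these shares, since neighbouring peaks are not independent. Of 66 tested peaks that overlapped such a gene 0 were lower and 1 higher, and of 1026 within 10 kb 8 were lower and 25 higher. Of 356 peaks 10 to 50 kb away 23 were lower and 3 higher. Of 90 peaks 50 to 100 kb away 10 were lower (11.1%) and of 118 peaks over 100 kb away 30 (25.4%), with 0 higher in both. The medians of the log2 fold change in these 5 steps were 0.11, 0.14, 0.072, -0.065 and -0.19.

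Intergenic peaks 10 kb or more from a start had shares of lower peaks close by in the outer steps. Over 100 kb from a protein-coding gene 263 of 995 (26.4%) were lower, and at 50 to 100 kb 47 of 445 (10.6%). At 10 to 50 kb it was 59 of 1304 (4.52%). Within 10 kb 10 of 273 were lower and 3 higher, and of 64 that overlapped a gene 4 and 0. The median distance of the 71 lower peaks from a protein-coding gene was 62170 bp, against 4702 bp for the 29 higher and 6942 bp for the 1556 uncalled. The farthest lower peak was that of Gm43041, and the closest was that of Bhlhe22, 1906 bp from its gene.

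**Figure D4:**
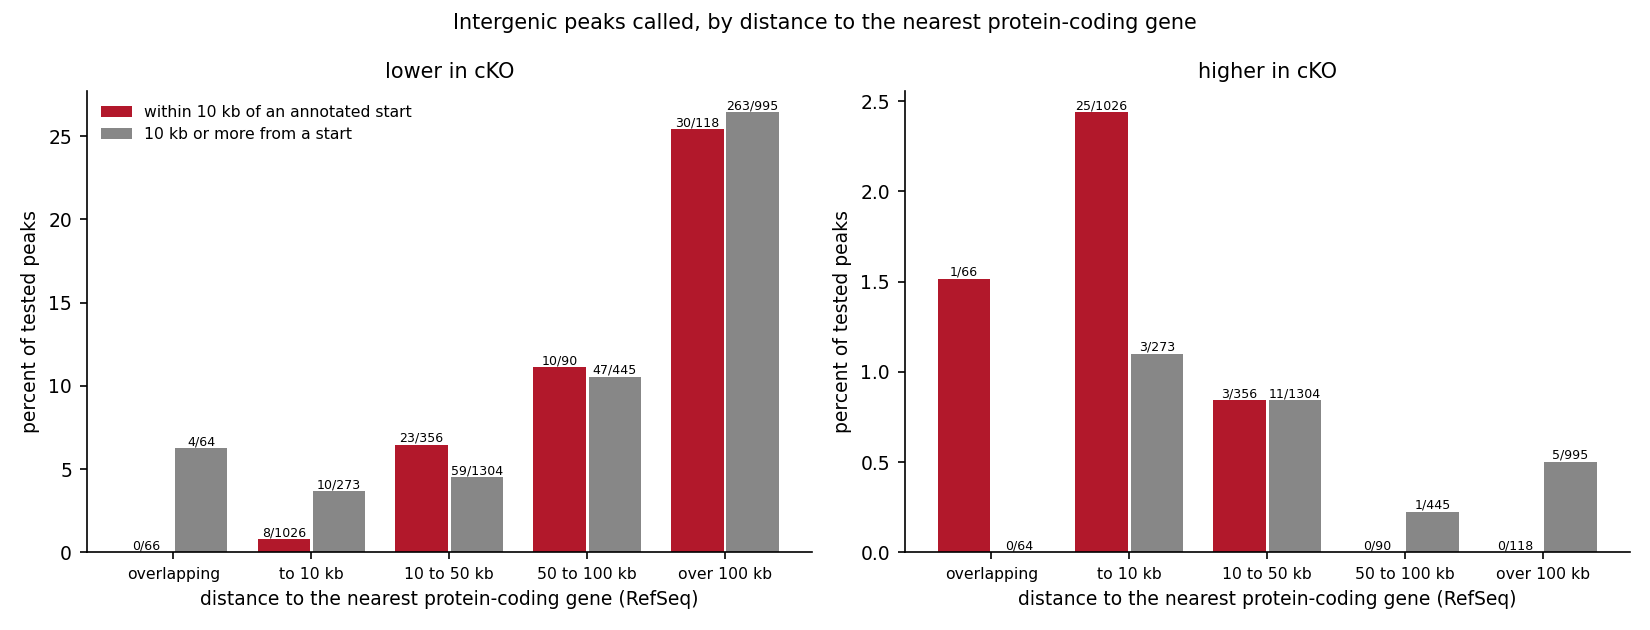
Percent of tested intergenic peaks lower (left) and higher (right) in cKO, by distance to the nearest RefSeq protein-coding gene, with the near intergenic peaks in red beside those 10 kb or more from a start in grey, and the number called over the number tested above each bar. The lower share reaches 25.4% and 26.4% over 100 kb from a protein-coding gene, and the vertical scales of the panels differ.

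The shares of lower peaks were also set out by width and level, both of which bring more reads and so make a change easier to detect. Of near intergenic peaks up to 2 kb wide 7 of 611 were lower, at 2 to 5 kb 27 of 791, at 5 to 10 kb 22 of 202 and over 10 kb 15 of 52. Over all tested peaks the shares in these steps were 3.01, 5.81, 11.3 and 15.7%. Within a width step the biotypes had unequal counts. Over 10 kb 3 of 28 peaks of protein-coding genes were lower against 12 of 24 of other biotypes, and at 5 to 10 kb 2 of 102 against 20 of 100. Ranked by level over all tested peaks, the top class of 5 (from 68.1 CPM) held 89 near intergenic peaks, of which 25 were lower and 1 higher, and the bottom class 504, of which 3 were lower and 4 higher. The shares lower were 28.1% and 0.595% in these classes, beside 13.0% and 1.90% of all tested peaks. Intergenic peaks farther from a start had 38.7% and 2.47% lower there, and promoter peaks 6.86% and 0.950%. In the classes between, from high to low, the near intergenic shares were 7.42, 4.44 and 2.00%, beside 12.0, 6.35 and 3.68% of all tested peaks.

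In the top class of level 25 of 89 near intergenic peaks were lower, among them the 3110004A20Rik peak. The 8 strongest by level or density, taken as the first 5 of each, did not pass the test. The highest was the Gm43103 peak (chr5:101515210-101553870), 105 kb from the homeobox gene Nkx6-1, with 949.9, 942, 833, 838 and 802 CPM in cKO and 1099.5, 1005, 930.3, 885 and 766 CPM in controls. The groups overlap (log2 fold change -0.10 ± 0.07, adjusted p = 0.425). The widest, of 46151 bp, lay by the autophagy receptor gene Calcoco1, upstream of its start (chr15:102727060-102773210), and averaged 504 ± 23.6 CPM in cKO and 475 ± 18.2 CPM in controls (SD, n = 5 each), and a second Calcoco1 peak, downstream of the start, 359 ± 31.8 and 361 ± 33.5 CPM. The densest, assigned to Gm8762 and 61.4 kb from the nuclear receptor gene Nr5a2, held 28.1 CPM per kb and averaged 179 ± 15.5 CPM in cKO and 182 ± 17.6 CPM in controls. The peaks of Gm10320, Gm40289, Gm47475 and Gm37505 had log2 fold changes from -0.04 to 0.10 and adjusted p from 0.552 to 0.966. Among these 8 strong peaks the sign of the second Calcoco1 peak and those of Gm8762, Gm10320 and Gm40289 turned with the total count, where they were at most 0.04.

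Some lower near intergenic peaks stood beside other lower peaks. The nearest tested peak outside the set was itself lower at 26 of the 71 (36.6%), against 36 of 1556 uncalled (2.31%) and 1 of 29 higher peaks, and over all tested peaks 7.38% were lower. Neighbouring peaks share their surroundings and are not independent. The neighbour was a promoter peak for 50.7% of the lower, 73.1% of the uncalled and 75.9% of the higher near intergenic peaks. The lower peaks came from 66 genes. One of them, chosen after its value was seen because the title of the study names the gene nearby, was assigned to the pseudogene Gm32308 (chr6:98747950-98750730), 175 kb from the forkhead gene Foxp1. It held 4.22, 3.98, 21.1, 13.7 and 13.1 CPM in cKO and 6.92, 7.48, 31.3, 30.4 and 24.7 CPM in controls, below every control of its batch in each cKO animal (-0.83 ± 0.15, adjusted p = 9.45e-04).

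For 588 near intergenic peaks the assigned gene had a tested promoter peak, and the change at the intergenic peak was compared with that at its strongest promoter peak in the same animals (limma on the difference of log2 CPM). The difference passed the threshold at 0 of the 588, against 0.492% of all 2847 pairs outside promoters. It had an unadjusted p under 0.05 at 59, of which 41 were toward more of the mark at the intergenic peak. On simulated data, with promoter peaks paired at random, this test found 17% of intergenic peaks changed 1.5-fold and 70% of those changed 2-fold. Differences near 1.5-fold would thus mostly be missed. Intergenic peaks had a median of 10.99 CPM and the promoter peaks 27.8 CPM. In these 588 pairs the intergenic peak was lower in 20 and higher in 12, and the promoter peak lower in 19 and higher in 8. Over all tested peaks 7.38% were lower and 1.46% higher. Pairs of 1 gene share their promoter peak, so that the 19 pairs hold fewer promoter peaks. Both were lower in 7 pairs, those of Gm12414, Gm32308, 4933439N14Rik, Gm18073, Aqp6 and both peaks of Gm11729. These genes were named after their values were seen. Both were higher or opposite in 0 pairs. With so few higher calls, pairs of either kind would be rare, and the 0 says little.

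The Tspan33 pair had the smallest p. The promoter peak averaged 71.4 ± 5.62 CPM in cKO and 68.5 ± 4.84 CPM in controls (SD, n = 5 each), while the intergenic peak described above had nearly 10 CPM in cKO. The log2 fold change of the intergenic peak exceeded that of the promoter peak by 0.69 ± 0.15 (limma adjusted p = 0.0617). At Dlk1, an imprinted Notch-related gene, a low intergenic peak averaged 3.00 ± 0.855 CPM in cKO and 5.14 ± 1.40 CPM in controls, beside a promoter peak of 277 ± 11.3 and 272 ± 27.8 CPM, a difference of -0.65 ± 0.17 (adjusted p = 0.09). Another near intergenic peak of Dlk1 went the other way, with a log2 fold change of 0.24 against -0.77, and neither passed the main test. The pairs of Impdh1, a nucleotide synthesis gene, Fam83c and H2-Q7 had differences of 0.70, 1.04 and 0.76 and adjusted p of 0.103, 0.107 and 0.0668. Their promoter peaks were low, with 9.45, 5.95 and 5.92 CPM in cKO and 12.3, 7.51 and 7.99 CPM in controls. The log2 fold changes of these promoter peaks were -0.37, -0.33 and -0.41, none passing, so part of each difference lies at the promoter peak. H2-Q7 is a histocompatibility gene with near-identical copies beside it, so its reads may be split among them and its values are uncertain.

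**Figure D5:**
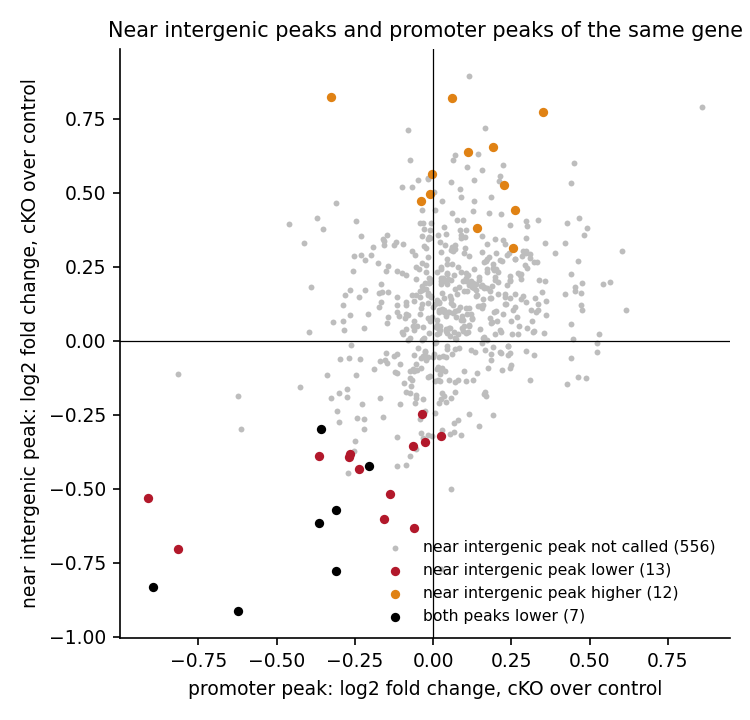
Each point is 1 of 588 near intergenic peaks whose gene has a tested promoter peak, placed by the log2 fold change (cKO over control) of the strongest promoter peak (x axis) and of the intergenic peak (y axis). The 7 black points are pairs with both peaks lower, red points are the other 13 lower and orange points the 12 higher intergenic peaks. No point has a lower and a higher peak together, though few pairs hold a higher peak.

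Control replicate 1, the only control with Cre, was set beside control replicate 2 of the same batch. At 69 of the 71 lower peaks it had the lower level of the pair, and at 57 it lay between control replicate 2 and both cKO animals of batch 1. The same held at 1137 of all 1204 lower peaks (94.4%), with 1007 between, so it was not particular to near intergenic peaks. Over all tested near intergenic peaks it was the lower of the pair at 41.2%, and over all tested peaks at 49.8%. At the lower peaks the median log2 CPM difference from control replicate 2 was -0.81 in cKO replicate 1, -0.70 in cKO replicate 2 and -0.43 in control replicate 1. For control replicate 1 it was 0.0028 over all tested peaks. The lower peaks were called with these same animals, which favours controls above cKO animals there. These counts and medians are therefore no separate test. At the Gm8664 peak control replicate 1 held 61.8 CPM and control replicate 2 held 111 CPM, with 47.5 and 51.2 CPM in cKO replicates 1 and 2. This is 1 animal, which differed from control replicate 2 in Cre and in sex (male against female), and these cannot be told apart. Without it 75 peaks were lower and 26 higher.

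The distance limit cut through a run of low peaks. The 3 peaks just inside, at -9997, 9996 and -9993 bp from the start (negative upstream), were those of Gm15407, which was not tested, Gm26409 (9.24 ± 1.78 CPM in cKO and 9.69 ± 2.36 CPM in controls) and the cadherin gene Cdh13 (5.10 ± 3.04 and 5.47 ± 1.28 CPM). The 3 just outside, at -10008, 10011 and 10011 bp, were those of Lypla1 and Mir146, which were not tested, and of the neuropeptide gene Cartpt (10.7 ± 1.57 CPM in cKO and 8.30 ± 1.95 CPM in controls, SD, n = 5 each).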

How the data were processed

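H3K27me3 CUT&RUN was analysed in 16 libraries of 10 animals (6 IgG libraries not analysed here). The authors deposited a table of counts per peak with a gene annotation, per the file headers. Novoalign 4.02.02, SAMtools, MACS2, DESeq2 1.38.1 and mm10 were used, per the submitters' processing notes, and settings for alignment, peak calling and counting, and whether reads or fragments were counted, were not given in the sources used here. Deposited columns of comparison results, whose contrast the headers do not name, were not used.

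Technical duplicates were summed. Labels do not say whether animals shared a litter. Peaks were filtered with filterByExpr, scaled with TMM and tested with edgeR 4.0.16 (glmQLFit and glmQLFTest, R 4.3.3) with batch as a term and Benjamini-Hochberg adjustment over all 16307 tested peaks. The standard error was taken as the log2 fold change divided by the square root of F. Log2 CPM used a prior count of 2. Pairs were tested with limma 3.58.1. The interaction was tested over 16989 peaks that pass the filter with its own design. On simulated data for cKO against control over 16307 peaks, 32% of 100 peaks changed 1.5-fold and 83% of 100 changed 2-fold were found, with 6 false calls. Named peaks were the 10 lower and 10 higher with the smallest adjusted p going the same way in both batches, the strongest, up to 2 per gene class, 3 on each side of the distance limit, and the smallest p against the promoter peak (5) and between batches (3). The gene class of noncoding models was corrected after seeing gene names. The members, lists and rules were chosen with earlier results of these data known. Alternatives were other scalings, filters, terms, batches, duplicates, tools, distance limits and leaving out each animal.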

Additional observations from a re-analysis of the deposited data

Results flagged for a closer look

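Of 104 groups of 5 animals at the named peaks, 8 had 1 animal set apart from the other 4 by more than Dixon's critical ratio of 0.71, and chance alone sets apart about 1 group in 20. Control replicate 1 stood low at the Gm8664 peak, with 61.8 CPM against 111 to 120.1 CPM in the other controls, and at the Gm43041 peak, with 65.3 CPM against 126 to 145 CPM. It stood high at the Cldn3 peak, with 15.3 CPM against 7.91 to 9.87 CPM, and at the Slc25a39 peak, with 8.90 CPM against 4.94 to 5.75 CPM. Among the cKO animals, replicate 5 stood high at the Dynlrb2 peak (13.1 CPM against 8.95 to 9.72 CPM) and replicate 2 at the upstream Calcoco1 peak (544 CPM against 485 to 501 CPM). Replicate 1 stood low at the Tcf24 peak (11.1 CPM against 14.5 to 15.5 CPM) and at the Meis3 peak (12.1 CPM against 17.4 to 17.9 CPM).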

How the results depend on the processing

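With relative log expression size factors, no filter, sex as a further term, autosomal peaks only or limma-voom, the counts of near intergenic peaks lower and higher stayed within 1.5 times those reported. With the total count 50 were higher and the median log2 fold change was 0.15. Without a batch term 17 were lower and 2 higher, and 8 of the 20 called named peaks passed. In batch 2 alone 10 were higher. In batch 1 alone edgeR called 0 lower, 0 higher and 0 named peaks, with 116 at an unadjusted p under 0.05 and a median of 0.15. The first duplicate gave 41 lower, 13 higher and 13 named, the second 11 higher, and DESeq2 43 lower, 2 higher and 12 named. The causes were not tested, though 1 duplicate or batch holds fewer reads or animals. Limits of 5000 and 20000 bp, which change the number of peaks, gave 23 and 146 lower, and 5000 bp gave 10 higher. Leaving out 1 animal gave 50 to 77 lower, 10 to 26 higher, medians of 0.076 to 0.11, 14 to 20 named and 0 to 1 in the promoter comparison (1 without control replicate 4).

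Animals with the same replicate number did not deviate together (correlations of deviations -0.56 to 0.14). With 2 animals per group in batch 1, replicates 1 and 2 share 1 value, -0.56, so the check decides little there. It means that cKO replicate 1 deviated with control replicate 2, both female. With the replicate as a block 66 were lower and 20 higher, the median was 0.11, all 10 lower and 10 higher peaks with the smallest p passed and the promoter comparison gave 0. The block ended the calls of the Tcf24 and Fam83c peaks and of no other named peak. The interaction gave 0 calls in each alternative run.

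Among the named peaks, signs turned only at ones that did not pass the test. With the total count these were Gm8762 (0.0311), Gm10320 (0.0116), the downstream Calcoco1 peak (0.0364) and Gm40289 (0.009002). In batch 2 alone they were Gm10320 (0.0415), Cdh13 (0.213) and Gm23409 (-0.314), and in batch 1 alone Gm47475 (-0.0855), the downstream Calcoco1 peak (0.0132), Slc25a39 (-0.000864) and Slc29a2 (-0.0365). With 1 duplicate they were Gm8762 (0.0318), Gm47475 (-0.00411) and Meis3 (-0.00288), and with DESeq2 Gm47475 (-0.00655). Leaving out 1 animal gave log2 fold changes of -0.0625 to 0.0128 at the downstream Calcoco1 peak, -0.272 to 0.0446 at Cdh13, -0.109 to 0.0061 at Gm10320, -0.0681 to 0.138 at Gm23409, -0.161 to 0.0325 at Gm26409, -0.058 to 0.0593 at Gm47475 and -0.0612 to 0.00632 at Gm8762.

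With simulated counts of the same depth and number of animals, changes of 1.5-fold were often missed. Depth and number of animals were not varied, so their parts in this were not tested, and a peak that did not pass is not shown to be the same in both genotypes.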
